A study of Mus musculus with 2 samples.

Results

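Interferon-stimulated genes, whose transcription is switched on when a cell receives an interferon, were examined in RNA-seq of mouse teratomas. A total of 35 such genes were chosen by their symbols from the 45777 gene rows of the deposited mm10 table, and all 35 had reads in both libraries. One library came from a teratoma of E14 cells, a mouse embryonic stem cell (ESC) line with wild-type Sox2. The other came from a teratoma of E14-Sox2TA/WT cells, in which CRISPR-Cas9 editing changed codon 258 of 1 Sox2 allele from threonine to alanine and left the other allele wild type. The edited line was selected as colonies grown from single cells, and how many clones gave the library was not stated in the sources used here. Both lines were inoculated under the skin of BALB/c-nu mice, 3 mice per group, and teratomas were taken after 14 days. Whether a library held 1 teratoma or a pool was not stated in the sources used here. The labels give the tissue as teratoma, while their protocol text speaks of RNA from an ESC line.

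With 1 library per group there was no replicate, no test could be made, and every difference below compares these 2 libraries and not the genotypes. Levels are given as TPM, the authors' estimate of a gene's share of all transcripts after scaling for transcript length and library size. Intervals in brackets after a ratio are exact 95% Clopper-Pearson intervals of the read counts and cover counting error only. The genes held 15311 of 50529171 reads in the E14 library, or 0.0303% (0.0298% to 0.0308%), and 24669 of 49030281 reads in the E14-Sox2TA/WT library, or 0.0503% (0.0497% to 0.0509%). Sox2 itself had a TPM of 246 in E14 and 130 in E14-Sox2TA/WT, and the table does not separate its alleles. The libraries stood apart in other ways. The 4 Y-linked genes Ddx3y, Eif2s3y, Kdm5d and Uty summed to 5453 reads in E14 but to 0 in E14-Sox2TA/WT. The scaling also moved all genes together. For the 11578 genes that reached a TPM of 10 in either teratoma, the median log2 ratio (E14-Sox2TA/WT over E14, pseudocount of 1) was -0.18 with TPM and 0.01 with FPKM, the length-scaled value before TPM's rescaling.

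Interferons are secreted proteins that cells release on sensing viral or misplaced nucleic acid. Type I interferons act through the Ifnar1 and Ifnar2 receptor, the kinases Jak1 and Tyk2, and a complex holding Stat2 and Irf9 that binds the interferon-stimulated response element (ISRE). Type II interferon, or interferon gamma, acts through Ifngr1, Ifngr2, Jak1 and Jak2 on promoters with a gamma-activated site (GAS). Undifferentiated ESCs are known for a weak interferon response, while macrophages respond strongly. Nude mice lack a thymus but keep macrophages, neutrophils and natural killer cells of their own, and a teratoma of this kind contains host vessels and blood cells beside the donor tissue. In such bulk tissue, more cells of a type and more RNA per cell cannot be told apart.

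Most of the 35 genes were higher in the teratoma of the edited cells. In all, 31 of 35 (88.6%) were higher and 4 were lower, and none of the 35 counting intervals held 1. Among all 18558 genes that reached a TPM of 1 in either teratoma, 47.5% were higher. At this depth most genes had an interval apart from 1, wholly above it for 40.8% of all genes and wholly below it for 46.1%, so the intervals of the 35 differ from the background in their side of 1 and not in leaving it out. The median of the 35 ratios was 1.93, and their summed TPM was 310 in E14 and 479 in E14-Sox2TA/WT. The 4 lower genes were Ifit2, Stat2, Irf9 and Ifi27. This division into 31 and 4 was the same with TPM, with FPKM and with 3 scalings of the read counts. Levels were low to moderate. In E14 they ran from a TPM of 0.232 for Oas3 to 64.0 for Ifi27, with a median of 6.08. In E14-Sox2TA/WT they ran from 1.34 for Oas3 to 82.8 for Bst2, with a median of 9.54. The depth behind single genes ran from 16 to 1748 reads in E14 and from 153 to 2058 reads in E14-Sox2TA/WT.

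**Figure D1:**
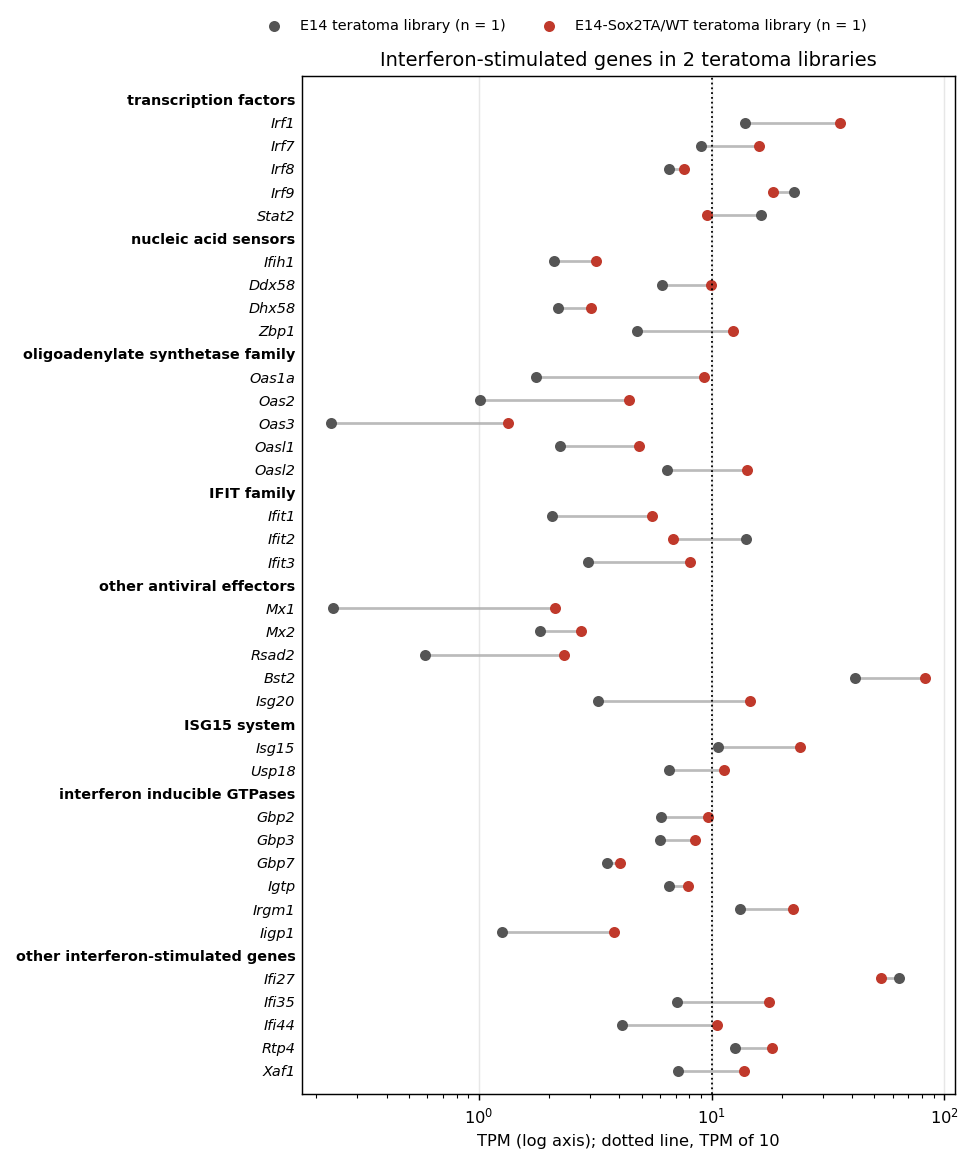
TPM on a log axis for each of the 35 genes, grouped by role, with 1 point per library and a line joining the points of a gene. The E14-Sox2TA/WT point lies to the right of the E14 point for 31 genes and to the left for Irf9, Stat2, Ifit2 and Ifi27.

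The study's rule for differentially expressed genes, a ratio above 2 among genes that reached a TPM of 10 in either teratoma, was then applied. The rule could test 17 of the 35 genes and called 8 of these higher in E14-Sox2TA/WT, beside 10.8% of all 11578 genes tested. It called 1 of the 17 lower, Ifit2, beside 18.7% of the genes tested. The genes called higher were Irf1, Zbp1, Oasl2, Bst2, Isg20, Isg15, Ifi35 and Ifi44. Among all 11578 genes tested, 1253 were called higher and 2167 lower. These counts are larger than those printed in the paper for the teratomas. The calls and shares given here are therefore not those of the paper's own gene list. Why the counts differ was not tested. Only 17 of the 35 genes reached the TPM minimum. Of these, 7 reached it in both libraries, 8 in E14-Sox2TA/WT alone and 2 in E14 alone. A gene that reaches the minimum in 1 library alone is favoured to differ, and 5 of the 8 genes called higher, as well as Ifit2, were of that kind. Irf1, Bst2 and Isg15 were called and passed the TPM minimum in both libraries. Bst2 lay just past the limit at a ratio of 2.01, and Xaf1 lay just short of it at 1.93. With FPKM in place of TPM, Irf7 and Xaf1 were also past the limit. By that measure 10 of the 17 were higher, beside 13.7% of the 11578 genes tested. None was lower, beside 14.3% of the genes tested. Over all genes called, 63.4% were lower with TPM and 51.1% with FPKM. When the TPM minimum was lowered to 1, all 35 genes entered. Then 17 were more than 2-fold higher and 1 was more than 2-fold lower, beside 19.3% and 18.9% of the 18558 genes past that minimum.

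**Figure D2:**
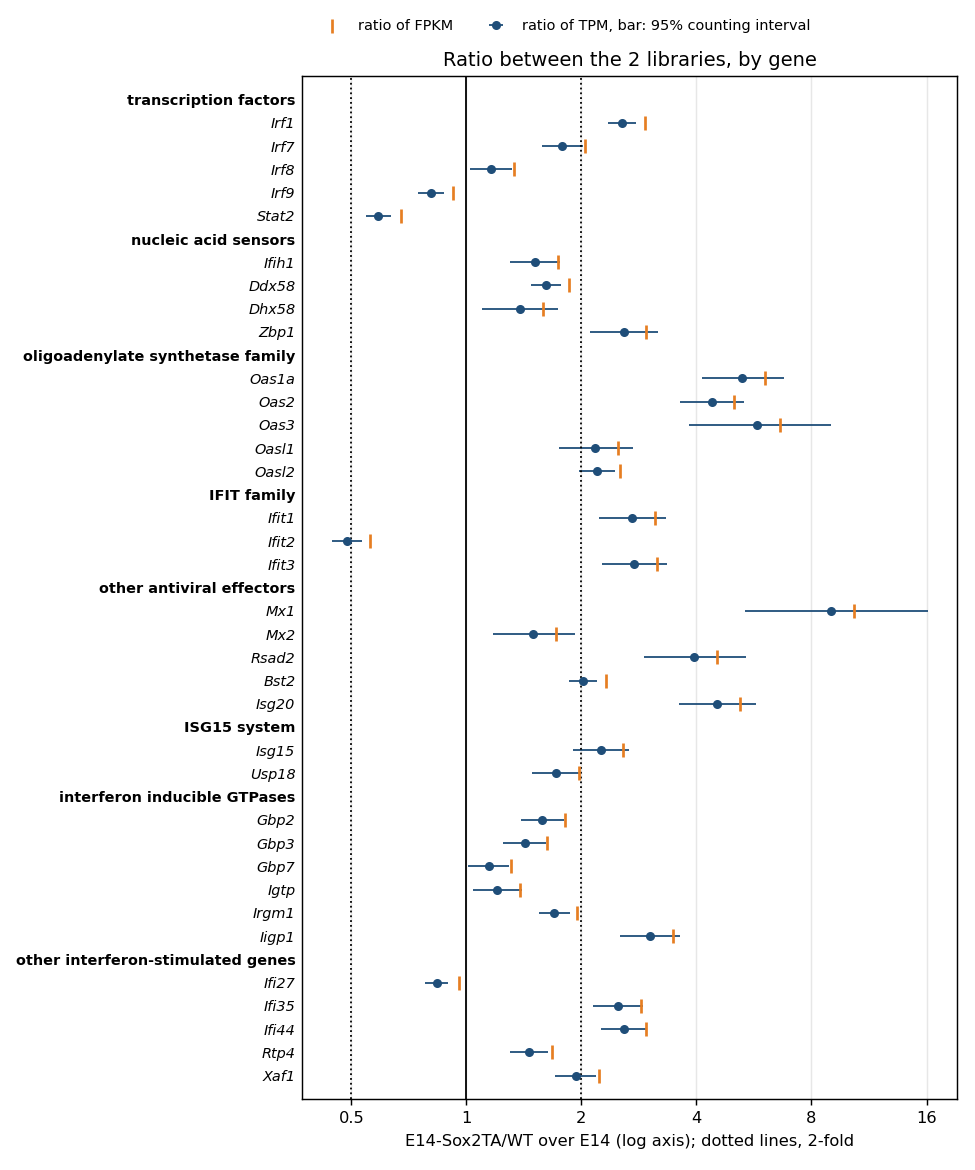
Ratio of E14-Sox2TA/WT to E14 on a log axis for each gene. Points are ratios of TPM with their 95% counting intervals, orange ticks are ratios of FPKM, and dotted lines mark 2-fold. The ratios of TPM run from 0.486 for Ifit2 to 8.98 for Mx1, and the FPKM tick lies to the right of each point.

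Among the 5 transcription factors of the set, Irf1 had the largest ratio. Irf1 activates promoters with an ISRE and is itself induced by interferon gamma. It lies on chromosome 11 of GRCm38 from 53770014 to 53778374. It had 720 reads in E14 and 2058 in E14-Sox2TA/WT, with TPM of 13.9 and 35.5, which was 2.55-fold higher (2.34 to 2.78). Irf7, which amplifies type I interferon genes, had TPM of 8.99 and 16, a ratio of 1.78 (1.57 to 2.01). Irf8, which directs the formation of macrophages and dendritic cells, had TPM of 6.56 and 7.61, and its ratio of 1.16 (1.02 to 1.31) was close to 1. Irf8 lies on chromosome 8, where the median log2 ratio over 634 genes was -0.67. The other members of this group went the opposite way. Irf9, the DNA-binding part of the complex that type I interferon forms, had TPM of 22.6 and 18.3, a ratio of 0.806 (0.746 to 0.871). Stat2, its partner, had 1748 reads and then 1148, with TPM of 16.2 and 9.54 and a ratio of 0.588 (0.545 to 0.634). With FPKM the ratios were closer to 1, at 0.925 for Irf9 and 0.675 for Stat2. Thus Stat2 and Irf9, which bring type I signals to the promoter, were lower, while Irf1 and Irf7 were higher.

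The promoter of Irf1 is shown because Irf1 was the transcription factor called. In this and the later promoters, capitals mark matches to the ISRE core (GAAA, any 2 bases, GAAA, on either strand) or to the GAS (TTC, any 3 bases, GAA). Sequences are from RefSeq on GRCm38.p6, read 5′ to 3′ on the gene's strand, from 250 bases before an annotated transcript start, and positions count from that start as 0. The first Irf1 window, chr11:53769764-53770063 on the plus strand, held 1 GAS, at -90 to -82, and no ISRE core. A second Irf1 window held neither motif.
Irf1: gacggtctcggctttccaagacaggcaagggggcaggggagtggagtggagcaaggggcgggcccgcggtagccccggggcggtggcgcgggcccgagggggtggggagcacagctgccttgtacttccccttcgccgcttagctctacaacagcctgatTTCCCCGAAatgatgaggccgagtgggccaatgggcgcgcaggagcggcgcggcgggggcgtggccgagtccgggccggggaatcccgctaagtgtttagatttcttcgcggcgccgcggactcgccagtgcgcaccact

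Isg15 is a ubiquitin-like protein that is joined to other proteins during the interferon response. It lies on chromosome 4 from 156199424 to 156200818. It had 194 reads in E14 and 486 in E14-Sox2TA/WT, with TPM of 10.6 and 23.9, and was 2.25-fold higher (1.90 to 2.67). Usp18, the protease that removes Isg15 and also dampens the type I receptor, had TPM of 6.56 and 11.2, a ratio of 1.72 (1.48 to 1.99). Both genes of this modifier system were thus higher in E14-Sox2TA/WT.

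Among the antiviral effectors, all 5 genes were higher. Bst2, or tetherin, holds budding virus particles at the cell surface and was the most abundant of the 35 genes in E14-Sox2TA/WT. Its 800 and 1798 reads gave TPM of 41.1 and 82.8, which was 2.01-fold higher (1.85 to 2.19). Bst2 lies on chromosome 8 from 71534255 to 71537472, where the median log2 ratio over 634 genes was -0.67, so it differed in the opposite direction to its chromosome. Isg20, an RNA exonuclease, had 90 and 459 reads. Its TPM of 3.25 and 14.7 gave the largest ratio of the genes called, 4.52 (3.60 to 5.73). Mx1, Mx2 and Rsad2 stayed below a TPM of 3 in both libraries. Mx1, a dynamin-like GTPase that the table lists as a transcribed pseudogene on this reference genome, had 16 and 153 reads and the widest interval, 8.98 (5.36 to 16.1). Rsad2, or viperin, which makes a chain-terminating nucleotide, had 54 and 235 reads, a ratio of 3.94 (2.92 to 5.40). Mx2, also listed as a transcribed pseudogene, had TPM of 1.83 and 2.74, a ratio of 1.5 (1.17 to 1.92).

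The promoters of Bst2 and Isg15 are shown as those of the most abundant genes called beside Irf1, and both hold overlapping ISRE cores. The Isg15 window, chr4:156200769-156201068 on the minus strand, held 3 ISRE cores, at -78 to -69, -72 to -63 and -66 to -57. The Bst2 window, chr8:71537423-71537722 on the minus strand, held a GAS at -136 to -128. This GAS overlapped the first of 2 ISRE cores, at -130 to -121 and -124 to -115.
Isg15: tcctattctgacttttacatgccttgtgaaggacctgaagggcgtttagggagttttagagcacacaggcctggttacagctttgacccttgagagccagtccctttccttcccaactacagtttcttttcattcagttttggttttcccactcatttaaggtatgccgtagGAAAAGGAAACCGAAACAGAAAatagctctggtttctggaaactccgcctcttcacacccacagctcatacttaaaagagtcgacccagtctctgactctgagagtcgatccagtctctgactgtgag
Bst2: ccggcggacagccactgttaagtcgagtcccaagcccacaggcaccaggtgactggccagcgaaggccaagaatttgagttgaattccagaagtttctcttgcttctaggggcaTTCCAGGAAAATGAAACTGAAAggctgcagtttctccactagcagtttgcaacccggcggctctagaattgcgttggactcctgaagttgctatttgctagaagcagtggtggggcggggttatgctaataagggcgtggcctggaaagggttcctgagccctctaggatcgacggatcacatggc

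The IFIT genes, which encode proteins that bind foreign RNA and block its translation, did not move together. They form a cluster on chromosome 19, with Ifit2 from 34550550 to 34576534, Ifit3 from 34583119 to 34588982 and Ifit1 from 34640889 to 34650009. Ifit2 was the most abundant of them in E14 and the only one of the 35 genes called lower. It had 1333 reads in E14 and 727 in E14-Sox2TA/WT, with TPM of 14 and 6.83 and a ratio of 0.486 (0.444 to 0.533). That call was lost with FPKM, where the ratio was 0.558. Its neighbours were higher instead. Ifit1 had 131 and 394 reads, with TPM of 2.05 and 5.56 and a ratio of 2.71 (2.22 to 3.33). Ifit3 had 140 and 424 reads, with TPM of 2.92 and 8.05 and a ratio of 2.75 (2.27 to 3.36). The intervals of Ifit1 and Ifit3 overlapped each other, and the interval of Ifit2 lay apart from both. In E14 the TPM of Ifit2 exceeded the sum of the others, and in E14-Sox2TA/WT it lay between them.

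The 3 promoters are shown to set the gene that was lower beside its neighbours. The Ifit1 window, chr19:34640639-34640938, held 2 ISRE cores, at -104 to -95 and -85 to -76. The Ifit3 window, chr19:34583279-34583578, held 2 as well, at -156 to -147 and -122 to -113. The first Ifit2 window, chr19:34550444-34550743, held no ISRE core and 1 GAS, at -241 to -233. The windows are on the plus strand, and a second Ifit2 window held neither motif. Such a match describes letters only. Absence is limited too, because only windows around listed starts were searched, with an exact pattern. A site elsewhere or of other letters would be missed. Whether these motifs bear on the lower ratio of Ifit2 was not tested.
Ifit1: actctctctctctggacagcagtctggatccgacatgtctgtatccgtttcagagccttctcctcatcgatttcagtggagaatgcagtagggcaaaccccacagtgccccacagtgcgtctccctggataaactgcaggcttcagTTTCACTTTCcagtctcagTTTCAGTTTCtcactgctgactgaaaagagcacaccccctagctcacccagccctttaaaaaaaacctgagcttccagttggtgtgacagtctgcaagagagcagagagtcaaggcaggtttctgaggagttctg
Ifit3: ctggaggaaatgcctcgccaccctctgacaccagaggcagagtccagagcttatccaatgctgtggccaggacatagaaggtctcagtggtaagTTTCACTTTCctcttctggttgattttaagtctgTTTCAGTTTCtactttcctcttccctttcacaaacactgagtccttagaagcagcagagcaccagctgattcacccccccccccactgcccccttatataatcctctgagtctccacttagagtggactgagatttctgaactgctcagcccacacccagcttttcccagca
Ifit2: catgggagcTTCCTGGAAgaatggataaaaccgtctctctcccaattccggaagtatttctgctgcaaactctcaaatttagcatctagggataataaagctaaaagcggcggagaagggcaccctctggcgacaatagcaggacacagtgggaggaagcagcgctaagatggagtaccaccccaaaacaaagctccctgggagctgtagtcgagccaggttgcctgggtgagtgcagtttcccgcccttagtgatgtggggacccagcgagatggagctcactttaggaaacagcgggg

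The oligoadenylate synthetase family, whose enzymes answer double-stranded RNA by making the signal that activates RNase L, was higher in the 5 members of the set. Each was more than 2-fold higher, and their summed TPM was 11.7 in E14 and 34.0 in E14-Sox2TA/WT. Oas1a, Oas2 and Oas3 lie together on chromosome 5 from 120730333 to 120907544. Oas1a had 80 and 411 reads, with TPM of 1.76 and 9.23 and a ratio of 5.26 (4.13 to 6.77). Oas2 had 142 and 508 reads, with TPM of 1.01 and 4.41 and a ratio of 4.38 (3.63 to 5.32). Oas3 had 27 and 170 reads, with TPM of 0.232 and 1.34 and a ratio of 5.76 (3.82 to 9.0). The counting intervals of these 3 genes overlapped. The genes Oasl1 and Oasl2 form a cluster of their own on chromosome 5, from 114896926 to 114937911, and had smaller ratios. Oasl1, which lacks enzyme activity, had TPM of 2.23 and 4.86, a ratio of 2.18 (1.75 to 2.72). Oasl2, which keeps that activity in the mouse, had 484 and 1037 reads. Its TPM of 6.44 and 14.1 made it the most abundant of the family, with a ratio of 2.20 (1.97 to 2.45), and it alone of the 5 reached the TPM minimum of the rule. Copies of Oas1a outside the set were uneven. Oas1g had 34 and 219 reads, a ratio of 6.10 (4.24 to 9.03), whereas Oas1b had 99 and 77 reads, a ratio of 0.697 (0.510 to 0.948), and Oas1c stood at 1.06 with an interval that held 1. Close copies exist in the IFIT, oligoadenylate synthetase, Mx and GTPase families, and how shared reads were assigned was not stated, so the division between members of a family is uncertain. For Oas2, the ratio was 3.69 with reads scaled by library total, beside 5.03 with FPKM.

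Of the nucleic acid sensors, all 4 were higher and Zbp1 differed most. Zbp1, which binds nucleic acid in the Z form and can trigger necroptosis, had 127 and 437 reads, with TPM of 4.76 and 12.3 and a ratio of 2.58 (2.11 to 3.17). Ddx58 encodes RIG-I, a sensor of viral RNA ends. It had 728 and 1314 reads, with TPM of 6.11 and 9.89 and a ratio of 1.62 (1.48 to 1.77). Ifih1 encodes MDA5, a sensor of long double-stranded RNA, and had TPM of 2.11 and 3.19, a ratio of 1.51 (1.30 to 1.76). Dhx58 encodes LGP2, which modulates the others, and had TPM of 2.18 and 3.02, a ratio of 1.38 (1.10 to 1.74). The RNA helicases were thus higher by smaller ratios than Zbp1, and their intervals overlapped one another.

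The interferon-inducible GTPases, which attack the membranes around intracellular microbes and respond mainly to interferon gamma, had uneven ratios. All 6 in the set were higher, from 1.14 for Gbp7 to 3.02 for Iigp1, but none was called. Gbp2, Gbp3 and Gbp7 lie together on chromosome 3 from 142530336 to 142638008. Gbp2 had TPM of 6.08 and 9.60, a ratio of 1.58 (1.39 to 1.80). Gbp3 had TPM of 5.99 and 8.51, a ratio of 1.42 (1.25 to 1.61). Gbp7 had TPM of 3.54 and 4.04, and its interval of 1.01 to 1.29 nearly reached 1. The immunity-related GTPases were more uneven. Irgm1, a regulator of the other proteins of its family, had 698 and 1334 reads. Its TPM of 13.2 and 22.4 were the highest of the group, with a ratio of 1.70 (1.55 to 1.87). Igtp, another regulator, had TPM of 6.58 and 7.93, a ratio of 1.21 (1.04 to 1.40). Iigp1, an effector, had only 161 and 486 reads, with TPM of 1.26 and 3.80 and a ratio of 3.02 (2.52 to 3.63). Relatives outside the set, all under a TPM of 10, ranged more widely. Gbp4, Gbp8, Gbp9, Tgtp1, Tgtp2, Ifi47 and Gm4951 had ratios from 2.17 for Tgtp2 to 3.19 for Gbp8. Gbp2b stood at 1.19 (1.02 to 1.38), and the intervals of Gbp5 and Irgm2 held 1. Gbp6 was lower, with a ratio of 0.810 (0.698 to 0.939).

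The remaining genes were mixed. Ifi27 was the most abundant of the 35 genes in E14, with 1593 reads there and 1468 in E14-Sox2TA/WT, and its TPM of 64.0 and 53.4 gave a ratio of 0.835 (0.778 to 0.897). With FPKM the ratio of Ifi27 was 0.959, closer to 1. Ifi35, a partner of Nmi in cytokine signalling, had 232 and 644 reads, with TPM of 7.08 and 17.6 and a ratio of 2.49 (2.14 to 2.90). Ifi44 had 282 and 812 reads, with TPM of 4.09 and 10.6 and a ratio of 2.58 (2.25 to 2.96). Xaf1, which opposes the apoptosis inhibitor XIAP, had TPM of 7.15 and 13.8, a ratio of 1.93 (1.71 to 2.19). Rtp4, a chaperone of membrane receptors, had TPM of 12.5 and 18.2, a ratio of 1.46 (1.30 to 1.64). Without its most abundant genes, Bst2 and Ifi27, the set still had a summed TPM of 205 in E14 and 343 in E14-Sox2TA/WT, a ratio of 1.68.

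**Figure D3:**
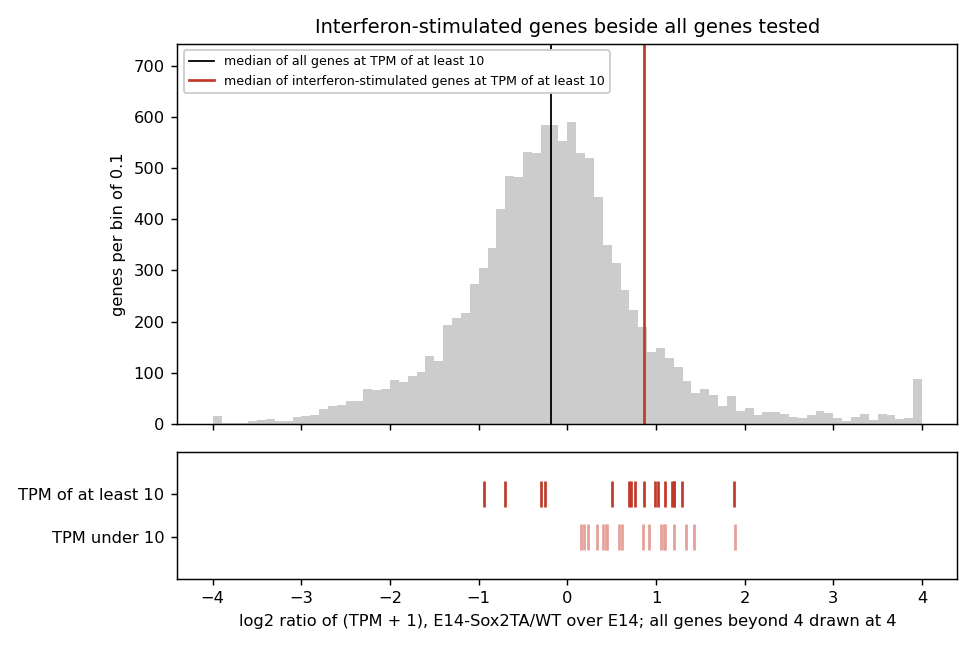
Number of genes by log2 ratio, with a pseudocount of 1, for the 11578 genes that reached a TPM of 10 in either teratoma (grey), with ticks below for the 35 interferon-stimulated genes. The median of all tested genes is -0.18 and that of the 17 interferon-stimulated genes past that minimum is 0.86, and the 18 under it all lie above 0.

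Transcript length went with the ratio among the genes that reached a TPM of 10 and had a listed length. The median log2 ratio was 0.31 in the tenth of genes with the shortest transcripts and -0.64 in the tenth with the longest. Isg15, Bst2 and Isg20 are short, with longest transcripts of 756, 792 and 1087 bases, while the median over the 35 genes was 2682 bases. For the 17 interferon-stimulated genes that reached a TPM of 10, the median log2 ratio was 1.04 when set against the median of all genes past that minimum. It was 0.96 when each gene was set against those of like transcript length. The part of transcript length in the result was not tested further.

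Promoter windows were listed for 26 of the 35 genes. Of their 33 windows, 15 (45.5%) held an ISRE core, beside 3.44% of all 32851 windows, and 9 (27.3%) held a GAS, beside 8.30% of all windows. The ISRE core occurred in 15 genes, and 7 of them, Bst2, Gbp3, Ifit1, Ifit3, Irgm1, Isg15 and Oas1a, held more than 1 match. Sites of other spacing or outside the windows would be missed, so a gene without a match may still carry an ISRE. Having the exact core in a window did not order the ratios. The 15 genes with it had ratios from 0.588 for Stat2 to 5.76 for Oas3, with a median of 1.70 and 14 of them higher. The 11 without it had ratios from 0.486 for Ifit2 to 4.52 for Isg20, with a median of 2.18 and 9 of them higher. The 9 genes with a GAS had a median ratio of 2.01, and the 17 without one 1.93. The genes were also divided by the interferon best known to induce them. The 27 genes listed under type I included all 4 that were lower and had a median log2 ratio of 0.92. The 8 listed under type II, which are Irf1, Irf8 and the GTPases, were all higher with a median of 0.51. Other summaries ordered the types the opposite way. Past a TPM of 10, the median was 0.86 for 15 type I genes and 1.01 for only 2 type II genes. Summed TPM in E14 and E14-Sox2TA/WT was 253 and 380 for type I, and 57.1 and 99.4 for type II, a larger ratio for type II. The difference between these divisions was not tested.

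**Figure D4:**
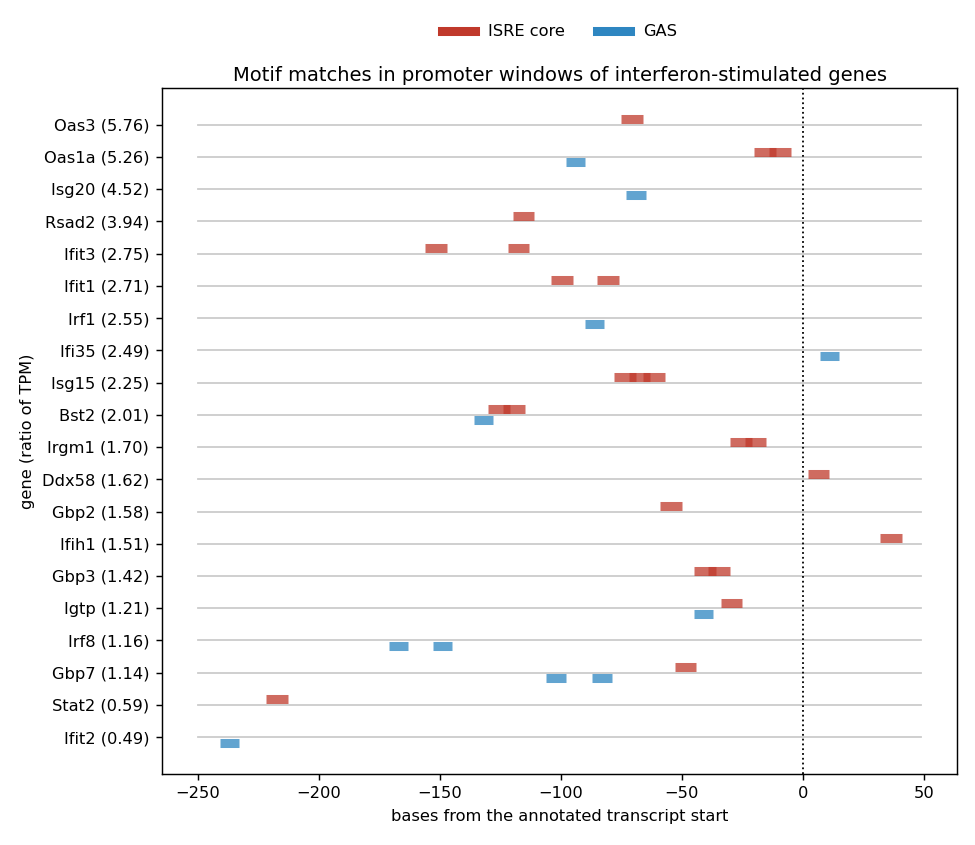
Position of ISRE cores (red) and GAS (blue) in the promoter windows that hold either, in bases from the annotated transcript start, with genes ordered by their ratio of TPM. Matches occur along the whole range of ratios, from 5.76 for Oas3 to 0.486 for Ifit2.

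The genes upstream of the response did not share its direction. Of 20 interferon ligand genes in the table, 13 had no read in either library, among them Ifng, the gene of interferon gamma. The other 7 together had 7 reads in E14 and 19 in E14-Sox2TA/WT, too few to measure a change, and Ifnb1 had 0 and 2. Of the 6 receptor genes, 3 were higher and 3 lower, with a median log2 ratio of -0.11, beside -0.06 over all genes that reached a TPM of 1. All ratios here are of TPM, for which the median log2 ratio over the 11578 genes past a TPM of 10 was itself -0.18. Ifnar1 had TPM of 46.6 and 27.7, a ratio of 0.595 (0.571 to 0.619), whereas Ifnar2 had 21.1 and 25.0, a ratio of 1.18 (1.09 to 1.29). Both chains of the interferon gamma receptor were lower, Ifngr1 with a ratio of 0.800 and Ifngr2 with 0.698. Il10rb, a chain shared with the type III receptor, had a ratio of 1.49, and Ifnlr1, its partner, stood at 1.11 with an interval that held 1.

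Among 9 signal transducers and inhibitors, 3 were higher and 6 lower, with a median log2 ratio of -0.33, beside -0.06 over all genes that reached a TPM of 1. Jak2, the kinase of the interferon gamma receptor, was called lower, with TPM of 38.0 and 11.9 and a ratio of 0.313 (0.296 to 0.332). Ptpn6, a phosphatase of blood cells that limits JAK signalling, was called higher, with TPM of 8.02 and 21.8 and a ratio of 2.72 (2.44 to 3.03). Also lower were Jak1 at 0.630, Stat3 at 0.792, Pias1 at 0.705 and Ptpn11 at 0.560. Tyk2 stood at 0.979, with an interval that held 1. The feedback inhibitors Socs1 and Socs3, which interferons and other cytokines induce, stood at 1.49 and 1.28. Of 16 sensing adaptors, kinases and further interferon regulatory factors, 8 were higher and 8 lower. Among the 14 that reached a TPM of 1, 7 were higher, beside 47.5% of all genes at that level. Irf5 had TPM of 2.54 and 6.52, a ratio of 2.57 (2.11 to 3.13) like that of Irf1, while Irf3 stood at 0.746 and Irf2 at 0.752. Irf2 lies on chromosome 8, where the median log2 ratio over 634 genes was -0.67. Trim25, which activates RIG-I and is itself induced by interferon, was called higher at 7.71 and 22.0, and Mavs, the adaptor below RIG-I and MDA5, was called lower at 27.1 and 13.0.

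A wider list of 69 other interferon-stimulated genes, assembled by hand, went the way of the 35. Of these, 61 were higher and 7 lower, some of them on few reads. Of the 58 that reached a TPM of 1, 51 were higher, beside 47.5% of all genes at that level. Their median log2 ratio was 0.81, beside -0.06 over all genes at that level. The rule tested 21 of them and called 8 higher and 1 lower, beside 10.8% higher and 18.7% lower of all genes tested. The highest TPM in E14-Sox2TA/WT were those of Ifitm3, Ifitm2 and B2m. The Ifitm proteins block virus entry and are also known in ESCs and germ cells without interferon. Ifitm1 had TPM of 66.0 and 387, Ifitm2 had 183 and 577, and Ifitm3 had 159 and 583. B2m, the light chain of MHC class I, had TPM of 312 and 477, a ratio of 1.53. The others called higher were Ifi27l2a, Pml, Phf11d, Slfn2 and Ly6e, and Trafd1, a negative regulator of innate immunity, was called lower at 55.3 and 27.0. Without the 3 Ifitm genes, the summed TPM of the list was 880 in E14 and 1518 in E14-Sox2TA/WT.

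**Figure D5:**
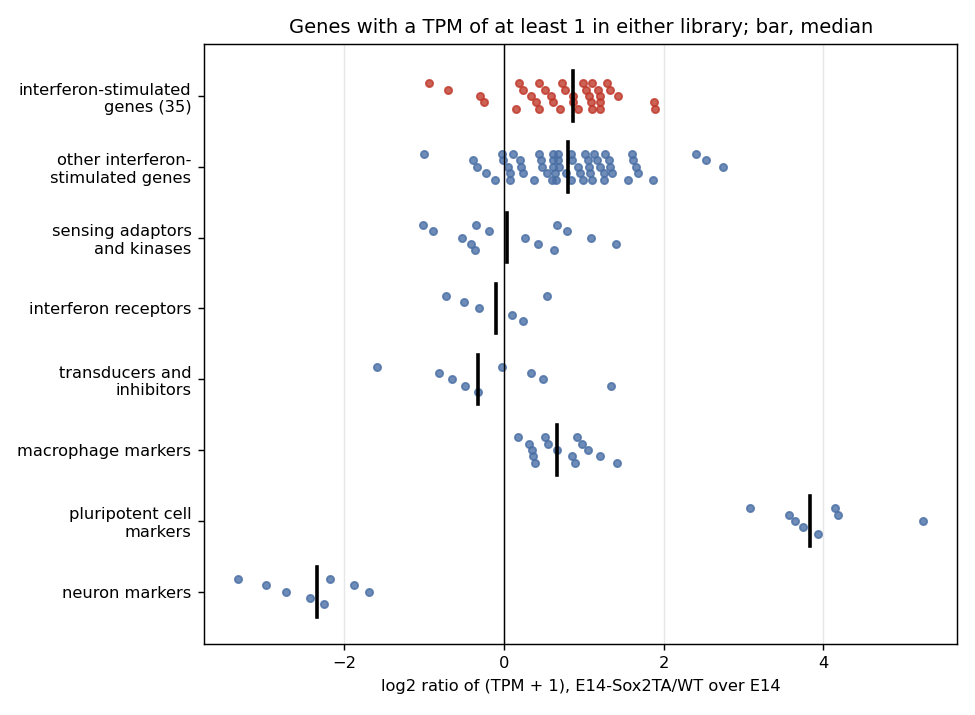
Log2 ratio, with a pseudocount of 1, of each gene that reached a TPM of 1 in either teratoma, by list, with the median as a bar. The 35 interferon-stimulated genes have a median of 0.86 and the other interferon-stimulated genes 0.81, while interferon receptors stand at -0.11, transducers at -0.33, macrophage markers at 0.66, pluripotent cell markers at 3.84 and neuron markers at -2.34.

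Markers of several cell types moved between the same libraries. All 15 macrophage markers were higher in E14-Sox2TA/WT, with a summed TPM of 1098 and 1855, a ratio of 1.69, and none at 0. Lyz2 had TPM of 457 and 943, C1qa 150 and 215, and C1qc 164 and 212. That sum is weighted towards the most abundant markers. Of the 35 interferon-stimulated genes, 21 had a larger ratio than that of the sum. By gene, 6 of the 15 markers and 17 of the 35 genes were more than 2-fold higher, beside 19.3% of all genes that reached a TPM of 1. The median log2 ratio was 0.66 for the markers and 0.86 for the 35 genes. The largest ratio of any macrophage marker was 2.98 (2.55 to 3.50), of Cd14, and 7 of the 35 exceeded it, namely Oas1a, Oas2, Oas3, Mx1, Rsad2, Isg20 and Iigp1. The intervals of Rsad2 and Iigp1 overlapped that of Cd14, and of the 7 only Isg20 reached a TPM of 10. All 8 pluripotent cell markers were higher, with a summed TPM of 78.4 and 1926, led by Dppa5a, Pou5f1 and Nanog. All 8 neuron markers were lower, with a summed TPM of 2601 and 371, led by Tubb3, Stmn2 and Map2. The part of these cell types in the result was not tested.

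Other blood cells were scarce by their defining markers. All 10 neutrophil markers were higher, with a summed TPM of 10.9 and 92.6, but Ltf, which secretory epithelium also makes, gave 62.9 of the latter. S100a9 stood at 6.81 and 15.4 and S100a8 at 2.23 and 8.72, while Ly6g and Elane had 0 reads in E14 and 9 and 6 in E14-Sox2TA/WT. The 12 T or NK cell markers summed to 1.73 and 5.99, with Cd3g and Klrb1c at 0 in both libraries. Their highest TPM were those of Cd4, Gzma and Cd3e. The 5 B cell markers summed to 1.97 and 4.78, led by Cd79b, Pax5 and Cd79a. The 8 dendritic cell markers summed to 11.1 and 15.7, led by Zbtb46, Itgax and Cd209a, and Siglech, a marker of the plasmacytoid cells that secrete type I interferon, had 0 and 21 reads. Endothelial markers summed to 124 and 141, led by Pecam1, Emcn and Cdh5. Cartilage markers summed to 117 and 108, led by Col2a1, Sox9 and Col9a1, and gut and secretory epithelium markers to 424 and 1153, led by Krt8, Krt18 and Krt19.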

How the data were processed

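RNA-seq of 1 E14 and 1 E14-Sox2TA/WT teratoma library was analysed. The authors deposited, for 45777 genes, raw read counts, FPKM and TPM. Per the labels, bcl2fastq 2.20.0, Trimmomatic, HISAT2 2.1.0 and StringTie 2.1.3b were used, and the builds mm10 and hg19 are named. Use of strand and assignment of reads shared by close copies were not given in the sources used here. Gene positions came from RefSeq on GRCm38.p6, the same build as mm10, which matched 45675 identifiers.

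Ratios of TPM were computed across all genes, with Clopper-Pearson intervals of the read counts carried to TPM. Genes were called past a ratio of 2 among genes that reached a TPM of 10 in either library. Medians of log2 ratios had 1 added to each TPM. No p-value was computed. Promoters were searched on both strands. Genes named were all 35 genes, all interferon receptors and transducers (1 transducer is not reported here and was left out of its list), in the list of other interferon-stimulated genes those called or among the 3 highest by TPM, and the 3 highest markers of each cell type. Other genes were named after their values were seen. The genes and lists were chosen with earlier results of these data known. Alternatives covered pseudocount, TPM minimum, ratio limit, scaling, chromosomes 8, 15 and Y, and gene families with close copies. The scripts were tested on simulated data. Tools were edgeR 4.0.16 (TMM factors only) in R 4.3.3, and scipy 1.17.1, pandas 2.3.3, matplotlib 3.10.9 and numpy 2.4.6 in Python 3.11.15.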

Additional observations from a re-analysis of the deposited data

How the results depend on the processing

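No paired analysis was possible because each group has a single library, so none could be left out either. Of 140 ratios of single genes under other scalings, none changed direction, and 38 moved beyond their counting interval. The 8 genes called higher became 17 of 35 with a TPM minimum of 1, beside 19.3% of all genes past that minimum. They became 17 without a minimum, 3 of 7 where both libraries had to reach a TPM of 10, 1 at a ratio above 3 and 5 where the whole counting interval lay past 2-fold. The share of all genes was not computed without a minimum, with both libraries at the minimum, or for other ratio and interval limits. Those counts, higher or lower, therefore have no background beside them. Another TPM minimum admits more or fewer genes by construction, and a stricter ratio or interval limit can only keep or lower a count. For the other settings the cause was not tested. The 1 gene called lower became 2 at a ratio above 1.5. It became 0 where both libraries had to reach a TPM of 10, at a ratio above 3 and with the whole counting interval. It also became 0 with FPKM and with reads scaled by library total, by TMM or by median-of-ratios size factors. Without families with close copies the count was 0 by construction, because those families include Ifit2. The median log2 ratio of 0.86 became 1.07 with reads scaled by library total and 1.04 when centred on the median of all genes. It was 0.72 where both libraries had to reach a TPM of 10 and 0.81 without chromosomes 8, 15 and Y, the lowest of its alternatives. That centring and the one on transcript length were chosen after seeing the data. Counting error limits Mx1, Oas3 and Rsad2 most.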

Other observations

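The p200 genes of the wider list, which encode interferon-inducible proteins that bind DNA and lie on chromosome 1, all stayed under a TPM of 10, so the rule tested none of them. Ifi203 had 250 reads in E14 and 785 in E14-Sox2TA/WT, a ratio of TPM of 3.45 (2.99 to 3.99). Ifi204 had 134 and 553 reads, a ratio of 3.73 (3.08 to 4.53), and Mndal had 147 and 429 reads, a ratio of 2.93 (2.43 to 3.56). Ifi205 had 0 reads in E14 and 186 in E14-Sox2TA/WT, which was at least 63.9-fold higher per library total when 3 reads are allowed for the count of 0. Ifi209 had 0 and 63 reads, Ifi206 had 0 and 4, and Ifi213 had no read in either library. These genes are close copies, and how their shared reads were divided is not known. They were named after their values were seen.

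The interferon-inducible chemokines were scarce. Cxcl10, which draws activated lymphocytes, had 25 and 114 reads, a ratio of 4.12 (2.66 to 6.64). Cxcl9 had 19 and 44 reads, and Cxcl11 had 0 and 12.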
